A study of Mus musculus with 12 samples.

Results

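The 10 genes described here encode enzymes and helpers that hydroxylate, fold, trim and crosslink collagen: the lysyl oxidases Lox, Loxl1, Loxl2 and Loxl3, the lysyl hydroxylases Plod1 and Plod2, the prolyl hydroxylase subunits P4ha1 and P4ha3, the collagen chaperone Serpinh1 and the procollagen proteinase enhancer Pcolce. They were chosen by name and found by gene number and symbol among the 27179 genes of the deposited raw counts, and all 10 were present. In the 12 mouse hearts, 9 of them passed a filter on low counts and were tested, as part of a fit over 13626 genes. Each of the 9 also passed that filter on the sham libraries alone. P4ha3 did not pass and is described by its counts.

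Collagen chains are modified in the endoplasmic reticulum before they fold into a triple helix. Prolyl hydroxylases make the hydroxyproline that keeps the helix stable, lysyl hydroxylases mark the lysines that later take part in crosslinks, and the chaperone made from Serpinh1 holds the folded helix until it leaves the cell. Outside the cell, proteases remove the end propeptides with the help of the Pcolce protein, and the copper-dependent lysyl oxidases oxidise lysines of collagen and elastin so that neighbouring fibres become joined. In the heart these steps belong mostly to fibroblasts, and collagen crosslinking is known to accompany the fibrosis and stiffening of a pressure-loaded ventricle.

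Bulk RNA was sequenced from hearts of mice that had been exposed in utero, from E0.5 until E17.5 (embryonic days), either to filtered air or to diesel exhaust. All offspring were then kept in filtered air, imaged by echocardiography at 11 weeks, operated on at 12 weeks and harvested at 15 weeks of age. The operation was a sham procedure or transverse aortic constriction (TAC), a narrowing of the aorta set with a 27 gauge needle that loads the left ventricle with pressure. The 4 groups were filtered air with sham, filtered air with TAC, diesel exhaust with sham and diesel exhaust with TAC, each with 3 hearts. No genotype or transgene is named, and the sources used here give no strain, sex or litter. Hearts of 1 group may share a litter, and p-values measure the spread between these samples, treated as independent.

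The 12 libraries held between 5534685 and 13265816 counts. Levels are given in CPM, the count of a gene scaled to a common library size with TMM factors, and 3 counts in a library equal 0.218 to 0.501 CPM. The share of mitochondrially encoded RNA ran from 18.3% to 32.4%. Pairs of libraries correlated at 0.907 to 0.97 across genes, and no 2 libraries were identical. The tissue label matched its markers: 8 ventricular cardiomyocyte genes summed to between 73500 and 136000 CPM in a library, and the lung genes Sftpc and Sftpa1 had no counts.

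The table of RefSeq promoters (assembly GRCm38.p6, 250 bases before to 50 after the start) held 5 of the 10 genes: P4ha1, P4ha3, Pcolce, Plod1 and Serpinh1. The stretches below lie upstream of the whole annotated gene, and are shown so that Serpinh1 and Pcolce, which rose after TAC, can be read beside Plod1, which did not pass the test. Each is written 5′ to 3′ on the strand of its gene, here the minus strand for all: Serpinh1 at chr7:99353240-99353489, Pcolce at chr5:137611523-137611654 and Plod1 at chr4:147936777-147937026. Capitals mark a match, on either strand, to 1 of the first 5 motifs spelled out after them, and matches of different motifs do not overlap there.
Serpinh1: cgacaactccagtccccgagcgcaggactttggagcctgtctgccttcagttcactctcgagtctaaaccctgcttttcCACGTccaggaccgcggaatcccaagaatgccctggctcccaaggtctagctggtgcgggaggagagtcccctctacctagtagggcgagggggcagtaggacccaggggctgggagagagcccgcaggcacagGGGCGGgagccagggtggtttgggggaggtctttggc
Pcolce: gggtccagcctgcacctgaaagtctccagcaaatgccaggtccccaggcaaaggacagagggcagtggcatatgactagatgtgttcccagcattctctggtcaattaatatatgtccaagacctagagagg
Plod1: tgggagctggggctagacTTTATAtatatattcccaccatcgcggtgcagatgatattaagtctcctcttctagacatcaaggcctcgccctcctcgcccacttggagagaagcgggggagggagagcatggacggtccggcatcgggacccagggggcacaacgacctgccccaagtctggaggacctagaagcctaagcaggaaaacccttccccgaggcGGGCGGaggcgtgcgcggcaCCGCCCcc
The Serpinh1 stretch holds 1 HIF core and 1 GC box, and the Pcolce stretch no match. The Plod1 stretch holds 2 GC boxes and 1 match to the letters of a TATA box, on the opposite strand. Over the full windows, the HIF core, ACGTG, stood in P4ha1 and Serpinh1 and in 19.6% of the 32851 windows of the table. The heat shock pair, GAANNTTC, stood in Plod1 and in 7.86% of windows. The GC box, GGGCGG, stood in all 5 genes and in 35.7% of windows. The TATA box, written as TATAAA, stood in P4ha1 and Plod1 and in 13.6% of windows. In P4ha1 the match lay after the start, at bases 290 to 295 of the window. In Plod1 it lay at bases 19 to 24, far upstream of the start. These are matches of letters, and whether they act as a TATA box was not tested. CCAAT was in none of the 5 genes and in 37.4% of windows. The SMAD box, GTCTAGAC, was in none of the 5 and in 0.213% of windows. These windows were rich in G and C, at 59.3% in Pcolce and 70.3% in P4ha1, beside a median of 52.7% over the table.

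After TAC, averaged over the 2 exposures, Lox was 6.44-fold higher, Loxl2 3.43-fold, Loxl3 3.08-fold, Loxl1 2.25-fold and Pcolce 2.01-fold. Serpinh1 rose 1.35-fold, and P4ha1, Plod1 and Plod2 did not pass the threshold. In this averaged comparison 6 of the 9 tested members rose and none fell, by the quasi-likelihood test of edgeR at a Benjamini-Hochberg adjusted p under 0.05, while 4.1% of all genes tested rose. After diesel exhaust 5 rose (Lox, Loxl1, Loxl2, Loxl3 and Pcolce) beside 1.75% of all genes, and in filtered air 1 rose (Loxl2) beside 0.609%. The log2 fold change was above 0 for 9 of 9 members in each exposure, beside 50.5% of all genes in filtered air and 50.1% after diesel exhaust. Some of these values were close to 0: across the alternatives, Plod1 ran from -0.07 to 0.14 after diesel exhaust and Plod2 from -0.12 to 0.34 in filtered air. The median over members was 0.98 in filtered air, 1.03 after diesel exhaust and 1.01 averaged, against 0.01, 0 and 0 over all genes.

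Single libraries weigh on these counts. The 5 members called after diesel exhaust became 2, 3 and 1 without sham replicates 1, 2 and 3 of that exposure, and 3, 2 and 1 without its TAC replicates 1, 2 and 3. Over all genes, the 239 called higher became 128, 198 and 134, and 161, 133 and 132, in the same order, so calls were lost generally. In filtered air the single call became 2 without sham replicate 2 or TAC replicate 3, 3 without TAC replicate 1, and 2 without diesel exhaust sham replicate 1 or 2. The 83 genes called higher there became 54, 73, 84, 91 and 101 in the same order. DESeq2 called 5 members in filtered air, and 165 of all genes as higher.

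**Figure D1:**
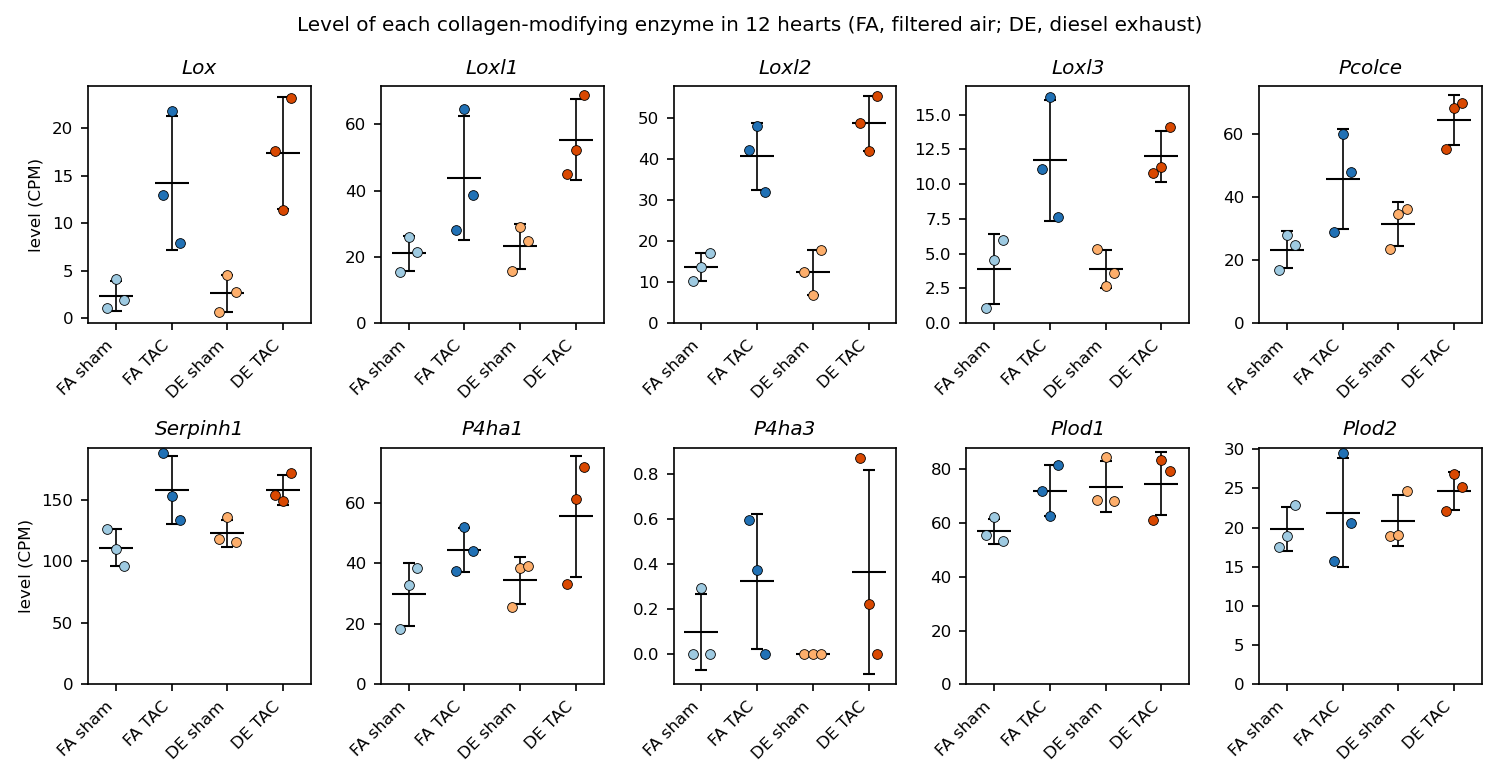
Level of each of the 10 genes in CPM (vertical axis, linear, scale differs by gene) in the 4 groups, with a point per heart, a horizontal mark for the mean and a whisker for the SD (n = 3). For Lox, Loxl2 and Loxl3 the 6 TAC hearts lie above the 6 sham hearts, while the groups overlap for Plod2 and P4ha3 lies near 0. How many of all genes lie apart was not counted.

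Lox, the lysyl oxidase that initiates crosslinks of collagen and elastin, was scarce in sham hearts. After filtered air it stood at 1.06, 4.11 and 1.95 CPM in the sham hearts and at 13.0, 21.8 and 7.89 CPM in the TAC hearts. After diesel exhaust it stood at 0.638, 4.51 and 2.74 CPM in sham and at 17.6, 11.4 and 23.2 CPM in TAC. The lowest TAC heart lay above the highest sham heart over both exposures, although the sham values rest on only 5 to 28 counts per library. How many of all genes have sham and TAC hearts that lie apart was not counted, for Lox or for the members below. The log2 fold change was 2.61 ± 0.60 (SE) in filtered air (adjusted p = 0.0689) and 2.76 ± 0.60 after diesel exhaust (adjusted p = 0.0226). Averaged, Lox rose by 2.69 ± 0.42 on the log2 scale, with a 95% interval of 1.77 to 3.60 and an adjusted p of 0.00155. The call after diesel exhaust was lost without sham replicate 3 (adjusted p = 0.0968), TAC replicate 1 (0.0621) or TAC replicate 3 (0.0794) of that exposure. In filtered air Lox passed by DESeq2 (adjusted p = 0.000208), with only the 2 groups in the fit (0.0255), without the robust option (0.0351), and without filtered air sham replicate 2 (0.0478), TAC replicate 3 (0.045), or diesel exhaust sham replicate 1 (0.0119) or 2 (0.04).

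Loxl2, a lysyl oxidase-like enzyme that acts on collagen IV of basement membranes and has been tied to cardiac fibrosis, was called in both exposures. In filtered air its sham hearts stood at 10.2, 13.7 and 17.0 CPM and its TAC hearts at 42.0, 47.9 and 31.8 CPM. After diesel exhaust the sham hearts stood at 12.5, 6.69 and 17.7 CPM and the TAC hearts at 48.7, 41.8 and 55.2 CPM. The 6 TAC hearts were thus all above the 6 sham hearts, with a wide gap between them. Loxl2 rose by 1.58 ± 0.27 in filtered air (3-fold, adjusted p = 0.00576) and by 1.97 ± 0.28 after diesel exhaust (3.92-fold, adjusted p = 0.000256). Averaged, the adjusted p was 7.51e-06. The call held in filtered air and after diesel exhaust in all 19 alternatives run and in the average in all 18, with a highest adjusted p of 0.0456, in filtered air without TAC replicate 2.

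Loxl3, a lysyl oxidase-like enzyme that shares the scavenger receptor domains of Loxl2, stood in filtered air at 1.06, 4.55 and 6 CPM in sham and 11.1, 16.3 and 7.65 CPM in TAC hearts. After diesel exhaust it stood at 5.36, 2.67 and 3.61 CPM in sham and 10.8, 11.2 and 14.1 CPM in TAC hearts. The 6 TAC hearts were again above the 6 sham hearts. Its log2 fold change was 1.63 ± 0.45 in filtered air (adjusted p = 0.104) and 1.61 ± 0.44 after diesel exhaust (adjusted p = 0.0494), and averaged it rose by 1.62 ± 0.31 (adjusted p = 0.00256). The call after diesel exhaust sat at the threshold and was lost by limma voom (0.0789), without the robust option (0.0662) and without any 1 of 9 libraries. These were filtered air sham replicate 2 (0.0648), filtered air TAC replicates 1 (0.0619) and 3 (0.051), diesel exhaust sham replicates 1 (0.0698), 2 (0.158) and 3 (0.16), and diesel exhaust TAC replicates 1 (0.0975), 2 (0.104) and 3 (0.177). In filtered air Loxl3 passed by DESeq2 (0.0254) and with no filter on low counts (0.00929).

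Loxl1, which crosslinks elastin on fibulin-5 scaffolds, was the most abundant of the 4 per length of transcript. In filtered air it stood at 15.5, 26 and 21.4 CPM in sham and 28.2, 64.7 and 38.5 CPM in TAC hearts. After diesel exhaust it stood at 15.7, 28.9 and 24.7 CPM in sham and 45, 52.3 and 68.9 CPM in TAC hearts. Within each exposure the groups did not overlap, but the lowest TAC heart of filtered air lay below the highest sham heart of diesel exhaust. The log2 fold change was 1.07 ± 0.30 in filtered air (adjusted p = 0.128), 1.27 ± 0.30 after diesel exhaust (adjusted p = 0.0258) and 1.17 ± 0.21 averaged (adjusted p = 0.00218). The call after diesel exhaust was lost without sham replicate 1 (0.11) or 3 (0.0856) or TAC replicate 2 (0.06) or 3 (0.12) of that exposure. In filtered air Loxl1 passed by DESeq2 (0.0363), with no filter on low counts (0.0342) and without TAC replicate 1 (0.0366).

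Pcolce, whose protein speeds removal of the C-propeptide so that collagen can form fibrils, also rose. Its filtered air hearts stood at 16.7, 28.0 and 24.8 CPM after sham and at 28.7, 60.0 and 48.0 CPM after TAC. Its diesel exhaust hearts stood at 23.5, 34.6 and 36.2 CPM after sham and at 55.1, 68.1 and 69.7 CPM after TAC. Sham and TAC did not overlap within either exposure, and the lowest TAC heart of filtered air lay within the sham range of diesel exhaust. The log2 fold change was 0.98 ± 0.25 in filtered air (adjusted p = 0.0784), 1.03 ± 0.25 after diesel exhaust (adjusted p = 0.0239) and 1.01 ± 0.18 averaged (adjusted p = 0.00109). The call after diesel exhaust was lost without sham replicate 1 (0.13), 2 (0.0529) or 3 (0.0508) or TAC replicate 2 (0.0856) or 3 (0.106) of that exposure. In filtered air Pcolce passed by DESeq2 (0.0284), with no filter on low counts (0.00392) and without TAC replicate 1 (0.0106). Averaged, Lox, Loxl1, Loxl3 and Pcolce each passed in all 18 alternatives, with highest adjusted p-values of 0.0108, 0.0104, 0.0126 and 0.00413.

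Serpinh1, the collagen-specific chaperone, was the most abundant member. In filtered air it stood at 126, 110 and 96.2 CPM in sham and 188, 153 and 134 CPM in TAC hearts. After diesel exhaust it stood at 118, 136 and 116 CPM in sham and 154, 149 and 172 CPM in TAC hearts. TAC lay above sham within each exposure, with a small gap. Neither exposure alone passed, at log2 fold changes of 0.51 ± 0.17 (adjusted p = 0.199) and 0.36 ± 0.17 (adjusted p = 0.29). Averaged, Serpinh1 rose by 0.44 ± 0.12, with a 95% interval of 0.19 to 0.68 and an adjusted p of 0.0252. That call was lost without filtered air sham replicate 2 (0.0554) or 3 (0.0795), filtered air TAC replicate 1 (0.0611), diesel exhaust sham replicate 1 (0.0655) or 3 (0.0671), or diesel exhaust TAC replicate 3 (0.0743).

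P4ha1, a catalytic alpha subunit of collagen prolyl hydroxylase, overlapped between sham and TAC in both exposures. It stood at 18.2, 32.9 and 38.3 CPM in sham and 37.5, 52.0 and 44.0 CPM in TAC hearts of filtered air. It stood at 25.4, 38.3 and 39.1 CPM in sham and 33.2, 61.2 and 71.7 CPM in TAC hearts of diesel exhaust. Its averaged log2 fold change was 0.64 ± 0.21, with a 95% interval of 0.20 to 1.08 and an adjusted p of 0.0711. It passed by DESeq2 (0.0347), with no filter on low counts (0.0357), without filtered air sham replicate 3 (0.0498) and without diesel exhaust TAC replicate 1 (0.0115). P4ha3, another alpha subunit, had 24 counts in all: 7 of the 12 libraries held none and no library held more than 12. The diesel exhaust sham hearts held none, and each group mean lay below 0.501 CPM, which 3 counts equal in the shallowest library, so no fold is given.

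Plod1, which hydroxylates lysines within the collagen helix, stood at 55.7, 62.3 and 53.2 CPM in sham and 71.8, 62.7 and 81.7 CPM in TAC hearts of filtered air. Diesel exhaust hearts stood at 68.4, 84.4 and 68.1 CPM in sham and 61.3, 83.3 and 79.4 CPM in TAC hearts. TAC hearts lay above sham hearts only in filtered air, where the nearest values of the 2 groups, 62.3 and 62.7 CPM, almost touched. The averaged log2 fold change was 0.18 ± 0.12, with an interval of -0.08 to 0.43 and an adjusted p of 0.44. Plod2, which hydroxylates the telopeptide lysines, reached at most 24.7 CPM in the 6 sham hearts and ran from 15.7 to 29.5 CPM over the 6 TAC hearts, a range that holds all sham values. Its averaged log2 fold change was 0.20 ± 0.16, with an interval of -0.14 to 0.53 and an adjusted p of 0.536. Averaged over exposure, the intervals reach a fold change no greater than 1.35 for Plod1 and 1.45 for Plod2. In filtered air they reach 1.62 for Plod1 and 1.55 for Plod2, and after diesel exhaust 1.3 and 1.64.

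**Figure D2:**
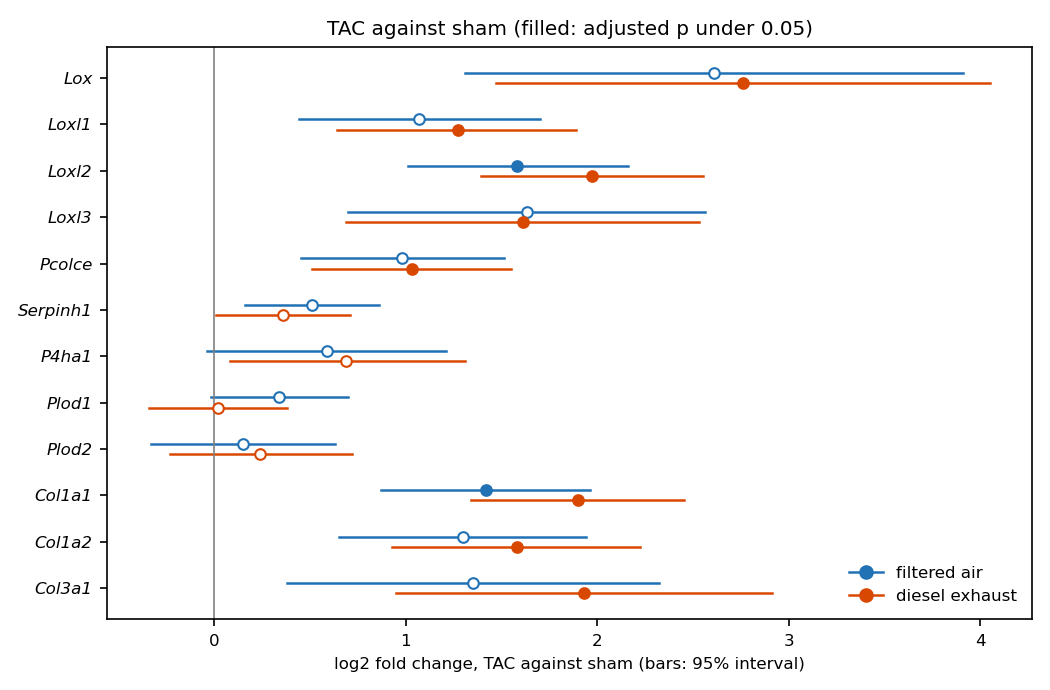
Log2 fold change of TAC against sham (horizontal axis) for the 9 tested members and 3 collagen chains, in filtered air and after diesel exhaust, with 95% intervals as lines and filled points where the adjusted p is under 0.05. Lox is farthest to the right at 2.61 and 2.76, and Plod1 and Plod2 lie nearest to 0 after diesel exhaust.

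Per kilobase of exon, the members spanned a wide range of levels, and counts of different genes are compared on this scale only. In filtered air sham hearts Serpinh1 stood at 45.3 CPM per kb, Plod1 at 15.8, Pcolce at 13.6, P4ha1 at 7.24, Loxl1 at 6.36, Plod2 at 5.33, Loxl2 at 2.52, Loxl3 at 0.944 and Lox at 0.497. In filtered air TAC hearts Pcolce stood at 26.8 CPM per kb, Plod1 at 20, Loxl1 at 13.3, P4ha1 at 10.8, Loxl2 at 7.51, Plod2 at 5.91, Lox at 2.98 and Loxl3 at 2.85. Loxl2 thus went from below Plod2 to above it. After diesel exhaust the TAC levels were 37.8 CPM per kb for Pcolce, 20.7 for Plod1, 16.8 for Loxl1, 8.99 for Loxl2, 6.66 for Plod2, 3.64 for Lox and 2.94 for Loxl3. Neighbouring means such as Lox and Loxl3 in TAC hearts were not tested against each other.

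Within the lysyl oxidase family, Loxl4 included, the summed level was 11.1 CPM per kb in filtered air sham hearts (range 7.75 to 13) and 27.6 in TAC hearts (21.8 to 38.2). With diesel exhaust the sums were 11.4 (9.37 to 12.8) and 33.8 (29.5 to 41.1). Loxl1 made up the most in each group, at 57.5% and 47.4% of the sum in filtered air sham and TAC hearts and 60.9% and 49.6% after diesel exhaust. Lox made up 4.23% and 10.5%, and 4.6% and 10.6%. Loxl2 made up 22.9% and 28%, and 20.2% and 26.8%. Over both exposures together these shares overlapped between the 6 sham and the 6 TAC hearts for each of the 5 genes. Within each exposure the Lox share was higher in each TAC heart than in each sham heart. It ran from 2.86% to 6.63% in sham and 7.58% to 12% in TAC hearts of filtered air. After diesel exhaust it ran from 1.43% to 7.89% in sham and 8.07% to 12% in TAC hearts. Among the lysyl hydroxylases, Plod1 gave between 56% and 62.2% of the summed group level and Plod2 between 17.3% and 18.9%. Among the prolyl hydroxylase subunits, P4ha1 gave 36% and 42.4% in filtered air sham and TAC hearts and 34.7% and 44.2% after diesel exhaust. P4ha2 gave the larger mean share in each group, at 63.8% and 57% in filtered air and 65.3% and 55.2% after diesel exhaust.

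**Figure D3:**
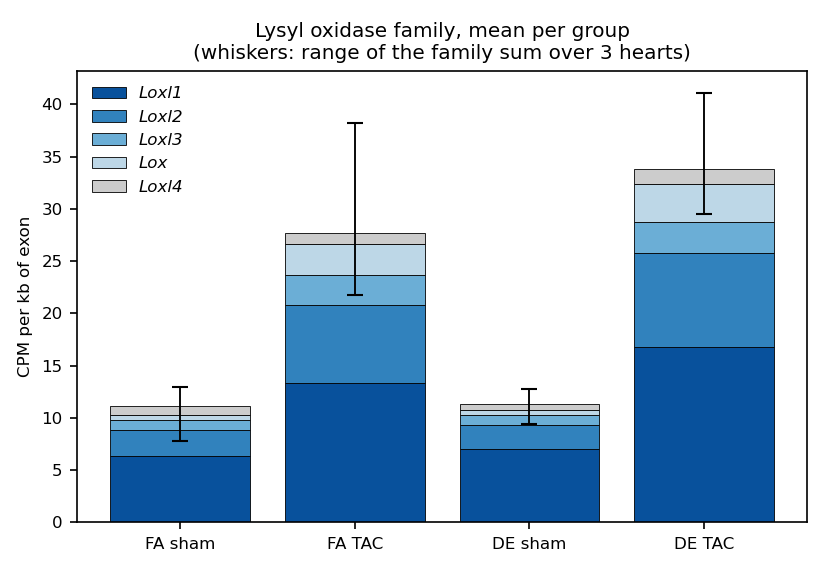
Mean level of the 5 lysyl oxidase genes in CPM per kb of exon, stacked by gene for the 4 groups, with whiskers for the range of the family sum over 3 hearts. The sum is 11.1 and 11.4 in sham and 27.6 and 33.8 in TAC hearts, and Loxl1 is the tallest part of each bar.

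The substrate of these enzymes rose as well. Summed over Col1a1, Col1a2 and Col3a1, the main fibrillar collagen chains of the heart, levels ran from 291 to 309 CPM in filtered air sham hearts and from 566 to 1080 CPM in TAC hearts. After diesel exhaust they ran from 200 to 500 CPM and from 956 to 1510 CPM. The sum itself was thus higher in each TAC heart than in each sham heart, so a gene that changes little after TAC falls relative to it. Relative to this sum, Plod1 and Plod2 were lower in each of the 6 TAC hearts than in any of the 6 sham hearts. How many of all genes lie apart on this ratio was not counted, so whether the separation is particular to Plod1 and Plod2 is not known. The log2 ratio of Plod1 to collagen was -2.39, -2.31 and -2.54 in filtered air sham hearts and -3.23, -4.10 and -2.79 in TAC hearts. Hearts of diesel exhaust had -1.55, -2.57 and -2.07 in sham and -3.96, -3.58 and -4.25 in TAC hearts. For Plod2 the mean log2 ratio was lower after TAC by a difference of -1.19 in filtered air and -1.63 after diesel exhaust.

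Over both exposures together, the other 7 tested members overlapped between sham and TAC on this ratio. Within each exposure, however, Lox was higher and Serpinh1 lower in each TAC heart than in each sham heart. Loxl1, Pcolce and P4ha1 were lower in this way after diesel exhaust only, and Loxl2 and Loxl3 overlapped in both exposures. The mean log2 ratio of Lox to collagen differed between TAC and sham by 1.39 in filtered air and 1.18 after diesel exhaust, and that of Loxl2 by 0.29 and 0.20. The difference was -0.29 and -0.60 for Loxl1, -0.35 and -0.83 for Pcolce, -0.66 and -1.24 for P4ha1 and -0.79 and -1.52 for Serpinh1. Loxl3 differed in sign between the exposures, at 0.56 and -0.20. These ratios are descriptions of 2 measured levels in each heart, and no test was run on them or on the difference between the enzymes inside and outside the cell.

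**Figure D4:**
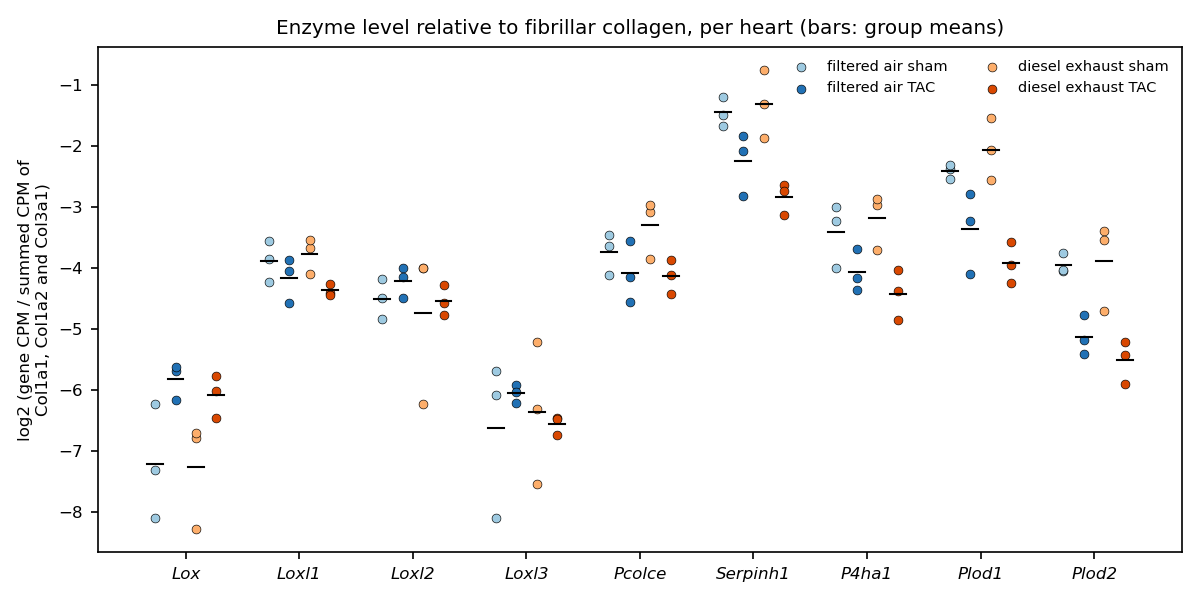
Log2 of the CPM of each tested member over the summed CPM of Col1a1, Col1a2 and Col3a1 (vertical axis), with a point per heart and a bar for each group mean. For Plod1 and Plod2 the 6 TAC hearts lie below the 6 sham hearts, and the other members overlap over both exposures together. Within each exposure, the TAC hearts lie above the sham hearts for Lox and below them for Serpinh1. The collagen sum itself is higher in each TAC heart than in each sham heart.

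Markers of fibroblasts, the main collagen-making cells, moved with the members. In bulk tissue, more cells of a type and more RNA per cell cannot be told apart. Of 10 fibroblast markers, 6 rose averaged over exposure and none fell, with a median log2 fold change of 0.74, and none was without counts. Their sum ran from 1500 to 1660 CPM in filtered air sham, 1880 to 2660 in filtered air TAC, 1430 to 1830 in diesel exhaust sham and 2290 to 2670 in diesel exhaust TAC hearts. Relative to that sum, Lox differed between TAC and sham by 2.20 and 2.51 on the log2 scale in filtered air and diesel exhaust, Loxl2 by 1.10 and 1.53, and Loxl3 by 1.38 and 1.13. For these 3 genes each TAC heart was above each sham heart. The share of all genes that lie apart on this ratio was not counted either. Over both exposures together the ratios overlapped for the other 6. They differed by 0.53 and 0.74 for Loxl1, 0.46 and 0.50 for Pcolce and 0.15 and 0.10 for P4ha1. The differences were 0.02 and -0.19 for Serpinh1, -0.15 and -0.54 for Plod1 and -0.37 and -0.30 for Plod2. Within diesel exhaust, Plod1 was lower in each TAC heart than in each sham heart. Gsn, which other heart cells also express, made up 49.4% of the marker sum on average, and Gsn and Dcn together 75.1%. The sum without Gsn therefore leans on Dcn, which is also on the list of collagen fibril regulators below. Without Gsn, an alternative chosen after seeing the data, Lox (1.91 and 2) and Loxl2 (0.81 and 1.02) still did not overlap, Loxl3 (1.08 and 0.62) did, and Plod2 was lower (-0.66 and -0.81) in the TAC hearts. Over both exposures together the others overlapped. Their differences moved down, to 0.24 and 0.22 for Loxl1, 0.17 and -0.01 for Pcolce and -0.14 and -0.41 for P4ha1. For Serpinh1 they moved to -0.27 and -0.70, and for Plod1 to -0.44 and -1.05. The sign for P4ha1 in both exposures, for Pcolce after diesel exhaust and for Serpinh1 in filtered air thus turned. Within diesel exhaust, Serpinh1 and Plod1 were lower in each TAC heart than in each sham heart.

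Other cell type markers also differed between TAC and sham hearts. The 4 atrial cardiomyocyte markers summed to between 62.8 and 109 CPM in filtered air sham, 442 and 982 in filtered air TAC, 53.2 and 97.8 in diesel exhaust sham and 771 and 1710 in diesel exhaust TAC hearts. Of these 4, 1 rose averaged over exposure, Nppa, which loaded ventricles also make (3.84 ± 0.36, adjusted p = 0.000225), while Sln (1.80 ± 0.99, 0.336), Myl7 (0.98 ± 1.06, 0.672) and Myl4 (0.50 ± 0.61, 0.719) did not pass. Of 8 macrophage markers 3 rose averaged over exposure, with sums of 154 to 177 CPM, 207 to 284, 149 to 277 and 254 to 276 in the 4 groups in the order above. Of 8 ventricular cardiomyocyte markers 4 fell, with a median of -0.50. Of 9 smooth muscle and pericyte markers 2 rose and 1 fell, and of 7 endothelial markers none passed in edgeR, with 2 at an unadjusted p under 0.05. Of 6 cartilage and bone markers, Matn1, Sp7 and Bglap had no counts, and the sum ran from 0.635 to 1.76, 1.31 to 5.76, 0.383 to 2.01 and 2.12 to 5.01 CPM in the 4 groups. The 2 tested, Acan (2.17 ± 0.86, adjusted p = 0.139) and Runx2 (1.16 ± 0.58, 0.251), did not pass averaged over exposure in edgeR, with 1 at an unadjusted p under 0.05. The part of these cell types in the change of the members was not tested.

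Diesel exhaust before birth was compared with filtered air within each operation, which asks whether the exposure altered these enzymes at rest or under load. No member passed the edgeR test in either, beside 0% of all genes in both. At an unadjusted p under 0.05 there were 1 member (Plod1) and 503 genes in sham hearts, and 0 members and 255 genes in TAC hearts. DESeq2 called 0 members in both, and 0 and 1 genes, and limma voom called none. In sham hearts Plod1 was higher in each of the 3 diesel exhaust hearts than in each filtered air heart, with a log2 fold change of 0.37 ± 0.17, an interval of 0.01 to 0.73 and an adjusted p of 0.996. Every other member overlapped between the exposures in sham hearts, and all overlapped in TAC hearts. Groups of 3 hearts can lie apart without an effect of exposure. The share of all genes that do so was not counted, so no effect on Plod1 is read from it.

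The sizes that these data still allow are set by the intervals. Pcolce had a log2 difference of 0.44 ± 0.25 in sham hearts (-0.09 to 0.97) and 0.50 ± 0.24 in TAC hearts (-0.01 to 1.01). Loxl2 stood at -0.13 ± 0.28 and 0.26 ± 0.26. Lox was the least precise, at 0.14 ± 0.67 in sham and 0.29 ± 0.51 in TAC hearts, with an interval of -0.82 to 1.4 in the latter. Serpinh1 was the most abundant and among the most precise, at 0.15 ± 0.17 (-0.20 to 0.50) and 0.00 ± 0.17 (-0.34 to 0.35). The difference was above 0 for 8 of 9 members in sham hearts, where 51.1% of all genes were, and for 9 of 9 in TAC hearts, where 48.4% were. The members share their libraries, so these signs are not independent.

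The interaction asks whether TAC changed a gene more after diesel exhaust than after filtered air. No member passed in edgeR, beside 0% of all genes. At an unadjusted p under 0.05 there were 0 members and 327 genes, DESeq2 called 0 members and 1 gene, and limma voom called none. The estimate was 0.39 ± 0.38 for Loxl2 (-0.41 to 1.19), 0.15 ± 0.85 for Lox (-1.68 to 1.98), 0.05 ± 0.35 for Pcolce and -0.32 ± 0.24 for Plod1 (-0.83 to 0.19). The 5 members called after diesel exhaust and the 1 called in filtered air therefore do not show a difference between the exposures.

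**Figure D5:**
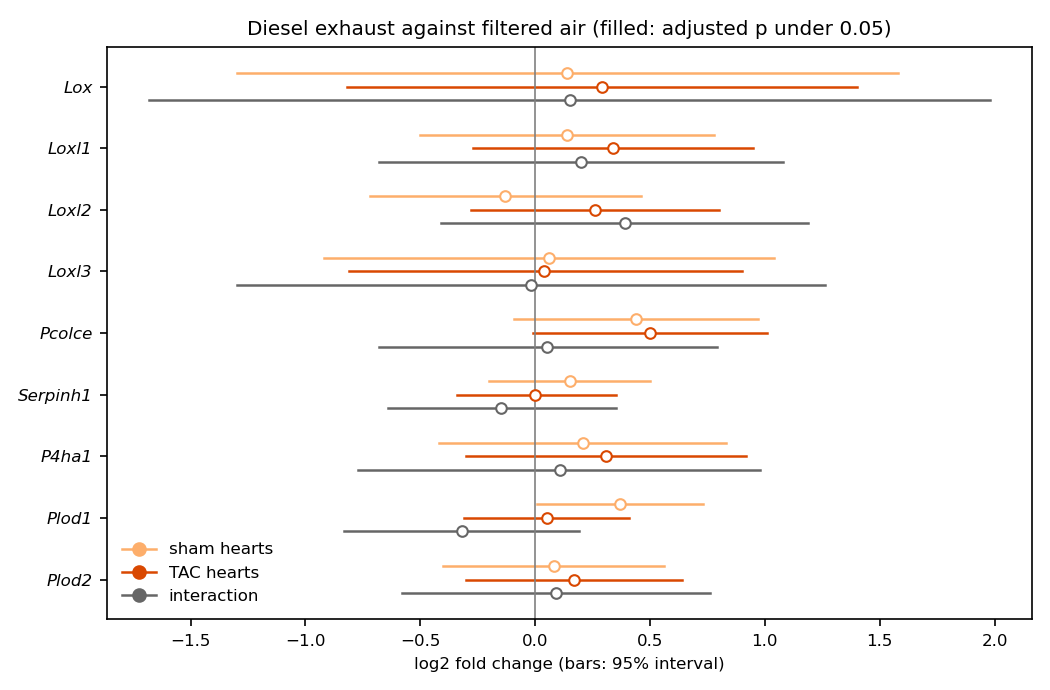
Log2 difference of diesel exhaust against filtered air in sham hearts and in TAC hearts, and the interaction, for the 9 tested members, with 95% intervals as lines; open points did not pass the test. All points are open, and the Plod1 interval in sham hearts (0.01 to 0.73) is the only one of the 27 drawn that leaves out 0.

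Genes of the same pathways were followed in lists. Of 17 other enzymes and chaperones of collagen modification, 1 rose averaged over exposure and none fell, with a median log2 fold change of 0.18. That gene was Sparc, a collagen-binding matrix protein, at 1.33 ± 0.22 (adjusted p = 0.00251). The crosslinking transglutaminase Tgm2 (0.39 ± 0.14, adjusted p = 0.0806), the prolyl 3-hydroxylase family gene P3h4 (-0.52 ± 0.18, 0.0829) and Loxl4 (0.79 ± 0.33, 0.157) did not pass. Of 7 tested propeptide proteases and enhancers 3 rose. These were Adamts2, which removes N-propeptides (1.55 ± 0.15, adjusted p = 7.61e-07), Pcolce2, a relative of Pcolce (1.04 ± 0.17, 0.000395), and Sfrp2 (2.02 ± 0.34, 0.000751). Tll2, a relative of the C-proteinase Bmp1, stood at -1.62 ± 0.67 (0.157).

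Substrates and partners of the enzymes were counted in the same way. Of 7 tested fibrillar collagen chains 5 rose, with a median of 1.44, among them Col1a1 (1.66 ± 0.18), Col1a2 (1.44 ± 0.21), Col5a1 (1.08 ± 0.16) and Col5a2 (1.94 ± 0.27). Of 9 elastic fibre partners of the lysyl oxidases 6 rose, with a median of 1.24, among them the fibrillin Fbn1 (1.81 ± 0.17), the microfibril protein Mfap5 (2.87 ± 0.28), Emilin1 (0.97 ± 0.14) and Fbln5 (1.24 ± 0.19). Of 9 regulators of collagen fibrils 8 rose, with a median of 1.69, led in p by Fn1 (1.75 ± 0.15), Bgn (1.66 ± 0.15), Postn (3.47 ± 0.24) and Lum (1.46 ± 0.16). Among TGF-beta ligands and targets, Ltbp2 (3.84 ± 0.30), Tgfb2 (1.16 ± 0.21) and Tgfb3 (1.09 ± 0.20) rose. The named genes of these 4 lists passed averaged over exposure in every alternative run. Lum and Mfap5 also stand among the fibroblast markers.

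Lox, Loxl2, P4ha1 and Plod2 are known targets of the hypoxia factor HIF-1. Of 14 other tested HIF-1 targets none rose and 1 fell averaged over exposure, with a median log2 fold change of -0.04. The gene that fell was Egln1, an oxygen sensor that marks HIF for degradation, at -0.54 ± 0.14 (adjusted p = 0.0167), a call lost without filtered air sham replicate 1 (0.0513). Hk2 (-0.45 ± 0.14, 0.0502), Hk1 (-0.22 ± 0.12, 0.302) and Ankrd37 (0.48 ± 0.31, 0.399) did not pass. Averaged over exposure, none of these 14 was higher and 2 were lower at an unadjusted p under 0.05 in edgeR, and DESeq2 called 2 of the 14. In filtered air 1 of the 14 was higher at that level, and after diesel exhaust 2 were lower. The members named above as targets are not among the 14, and the part of HIF-1 in their change was not tested. Of 4 tested genes of copper and vitamin C supply, the cofactors of lysyl oxidases and prolyl hydroxylases, none passed in edgeR, DESeq2 or limma voom, with 2 at an unadjusted p under 0.05. These were Atp7a (0.40 ± 0.16, 0.145), Atox1 (0.40 ± 0.18, 0.186), Slc23a2 (-0.10 ± 0.18, 0.831) and Slc31a1 (0.00 ± 0.15, 0.993). No gene of these lists passed edgeR, DESeq2 or limma voom in a comparison of exposure or in the interaction. Of their 76 tested genes that are no members, 0 had an unadjusted p under 0.05 in sham hearts, 9 in TAC hearts, each higher after diesel exhaust, and 3 in the interaction.

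In the assembly GRCm38.p6, Loxl2 (chromosome 14, 69608692 to 69695834) overlaps Gm27177 and Mir6950, Loxl3 (chromosome 6, 83034205 to 83052566) overlaps Htra2 and Mir7040, and Plod2 (chromosome 9, 92539636 to 92608428) overlaps B430319G15Rik. These are overlaps of whole gene spans, and exons were not compared. The strand setting of the counting is not given in the sources used here. Whether reads of the neighbours entered the counts of these genes is therefore not known. Lox (chromosome 18), Loxl1 (chromosome 9), Plod1 (chromosome 4), P4ha1 (chromosome 10), P4ha3 and Serpinh1 (both chromosome 7) and Pcolce (chromosome 5) overlap no other gene of that table.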

How the data were processed

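The authors deposited a table of raw counts, with 27179 genes in rows named by Entrez number, for 12 heart libraries, 3 in each of 4 groups. Per the labels' protocols, ribosomal RNA was depleted from total RNA, and 4 samples shared each Ion sequencing run; which ones is not stated. Per the submitters' processing notes, cutadapt 1.6, Subread 1.4.2 and featureCounts were used with the build mm10; the strand setting and the handling of multiply mapping reads are not given in the sources here. Symbols came from RefSeq GRCm38.p6 for 25275 genes.

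From the deposited counts, CPM with TMM factors and all tests were obtained in R 4.3.3. edgeR 4.0.16 fitted a robust quasi-likelihood model with 4 group means and 8 residual degrees of freedom to genes kept by filterByExpr (count minimum 10). The Benjamini-Hochberg adjustment ran over all 13626 genes within each of 6 comparisons, at a threshold of 0.05. Fold changes carry a standard error (SE), the log2 fold change over the root of F, and levels a standard deviation (SD), with n = 3 libraries per group. The floor of 3 counts, given in CPM, marks very low levels and entered no test. Exon lengths came from GENCODE. The scripts were tested on simulated data. Alternatives were DESeq2 1.42.0, limma 3.58.1 (voom), other size factors, no filter, only the groups compared, no mitochondrial genes, no robust option, and each library left out.

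The members, lists and tests were chosen with earlier results of these data known. Named are all members and, of each list, the 4 tested genes with the smallest p in TAC against sham averaged over exposure. The 10 genes most alike in pattern are also named. A gene that this rule takes is not reported here.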

Additional observations from a re-analysis of the deposited data

How the results depend on the processing

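The 6 members called averaged over exposure ranged from 5 to 7 with 1 library left out, the 5 after diesel exhaust from 1 to 5, and the 1 in filtered air from 1 to 3. In filtered air DESeq2 called 5 members, no filter on low counts 4, and a fit of only the 2 groups compared, or without the robust option, 2 each. Over all genes, TAC changed 113 genes in filtered air, 442 after diesel exhaust and 1091 averaged. In filtered air DESeq2 called 250, limma voom 74 and no filter on low counts 247, and after diesel exhaust DESeq2 called 668. With 1 library left out, these ranged from 39 (without filtered air TAC replicate 2) to 143, from 188 (without diesel exhaust TAC replicate 3) to 530, and from 631 (without filtered air TAC replicate 2) to 1213. Diesel exhaust against filtered air in TAC hearts, and the interaction, gave 0 genes in edgeR and 1 gene each by DESeq2 and with no filter. The cause of these shifts was not tested. No member was called in a comparison of exposure under any alternative run, and no called fold change of a member reversed. Depth limits P4ha3, at 0 to 2 counts in sham libraries, and the precision of Lox (5 to 28) and Loxl3 (10 to 42). The labels give no replicate numbers shared between groups, so no paired analysis was possible because nothing pairs the hearts.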

Other observations

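The genes most alike in pattern to the enzymes were found by Pearson correlation, over the 12 libraries, with the mean standardised log2 CPM of the 9 tested members, among 13254 genes with a mean of at least 1 CPM. They were Ace (r = 0.971), Sparc (0.968), Prelp (0.966), Fgl2 (0.964), Meox1 (0.957), Col5a2 (0.956), Tns3 (0.955), Mfap4 (0.952), Col6a2 (0.951) and Arhgef40 (0.948). Ace encodes the enzyme that makes angiotensin II, and its averaged log2 fold change after TAC was 1.25 ± 0.15. The libraries share the difference between sham and TAC, so these correlations are descriptions that the operation enters.

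The members did not follow each other equally. The correlation of a member with the mean of the other 8 was 0.956 for Loxl1, 0.944 for Pcolce, 0.895 for Lox, 0.867 for P4ha1, 0.823 for Loxl3, 0.81 for Loxl2, 0.625 for Serpinh1, 0.545 for Plod2 and 0.434 for Plod1. Single hearts also stood high or low for many members together. Diesel exhaust TAC replicate 3 was above its group mean in 9 of 9 members, by 0.23 on the log2 scale on average. Filtered air TAC replicate 2 was above in 7 of 9 (0.35), and filtered air sham replicate 1 in 1 of 9 (-0.45), where Serpinh1 was the exception. These hearts are examples: filtered air sham replicate 2 was also above in 7 of 9 (0.26), and diesel exhaust sham replicate 1 in 2 of 9 (-0.26). Whether such shifts are particular to the members was not tested. Diesel exhaust TAC replicate 3 also had the highest collagen sum of its group, 1510 CPM beside 956 and 999. Its fibroblast marker sum was the lowest there, 2290 CPM beside 2670 and 2380. The share of all genes above their group mean in each heart was not counted, so these counts only describe the members.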
